A study of Mus musculus with 9 samples.

Results

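A set of 10 genes of fibroblast growth factor (FGF) signalling were followed in bile duct organoids treated with R-spondin 1 (Rspo1). They are the receptor genes Fgfr1, Fgfr2 and Fgfr3, the transcription factor genes Etv1, Etv4 and Etv5, and the feedback genes Spry1, Spry2, Spry4 and Dusp6. The 10 genes were matched by name among the 32137 genes of each deposited count file, and all 10 were found. They were selected on a measured value, the higher level of Etv4 in the Rspo1 than in the untreated libraries, so the levels of the members against untreated cells are given as a description, without a test. Comparisons between the sorted Rspo1 fractions and between passages were not part of that rule and were tested. The members and the further gene lists were, however, chosen with earlier results of these data known.

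FGF ligands bind receptor tyrosine kinases on the cell surface, and the activated receptor passes its signal through adaptors and Ras to the kinases Raf, MEK and ERK. ERK activity raises transcription of the ETS factors Etv1, Etv4 and Etv5, which is why these genes are often read as an output of the pathway. It also raises transcription of the Sprouty genes, whose proteins restrain signalling between the receptor and Raf, and of Dusp6, a phosphatase that removes phosphate from ERK. Epidermal growth factor and hepatocyte growth factor feed the same cascade, so none of the output genes is specific to FGF. In the liver, FGF receptors are known for the control of bile acid synthesis by Fgfr4 in hepatocytes and for roles of Fgfr2 in bile duct cancer.

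Sorted cells came from differentiated bile duct organoids of a single male animal of mixed genetic background with the genotype Axin2CreERT2+/-; R26-LSL-tdTom+/-, in which tamoxifen-activated Cre made by Axin2-expressing cells turns on tdTomato. The untreated group was tdTom negative cells without Rspo1, and the other 2 groups were tdTom negative and tdTom positive cells of organoids given Rspo1 at 100 ng/ml, a secreted protein that strengthens Wnt signalling (below, Rspo1-negative and Rspo1-positive). All 3 groups, controls included, received 3 uM dexamethasone and 500 nM 4-hydroxytamoxifen in the last 24 h of 11 days of differentiation. Each group had 3 libraries, replicates 1, 2 and 3 from passages 5, 6 and 10, and no tdTom positive cells of untreated organoids were sampled. Because 1 animal gave all the cultures, p-values measure the spread between cultures and not between animals.

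Total counts per library were 23423979 to 37351448, and 9 of the 10 members passed the filter on low counts that kept 17011 genes. Checked against the tissue label, 7 of 7 biliary markers were detected in each group. Their summed level was 8089 to 9968 CPM (read counts scaled to a common library size) in untreated, 8148.5 to 9949.5 CPM in Rspo1-negative and 6981 to 7155 CPM in Rspo1-positive libraries, the last below all others. The summed mesenchymal markers stayed between 0.160 and 1.30 CPM and the endothelial markers between 0.288 and 0.784 CPM. Hepatocyte markers summed to 327 to 724 CPM and immune markers to 5.46 to 23.2 CPM over the libraries of all groups. Among the hepatocyte markers, mean Ttr was 316, 407 and 250 CPM in untreated, Rspo1-negative and Rspo1-positive libraries. Mean Alb was 12.9, 9.86 and 6.29 CPM. Of the 6 hepatocyte markers, 1, 2 and 1 had 0 reads in these groups. Proliferation markers summed to 108 to 174 CPM in untreated, 255 to 278 CPM in Rspo1-negative and 561 to 754 CPM in Rspo1-positive libraries. Axin2, the gene behind the reporter, stood at 3.01 ± 2.56, 88.7 ± 40.6 and 106 ± 42.3 CPM (SD, n = 3) in the same order. In these bulk libraries, fewer cells with a transcript and less of it per cell cannot be told apart.

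The sequence upstream of 3 members is shown because they were the members that passed a test in the comparisons below. The windows come from RefSeq on GRCm38.p6, are written 5′ to 3′ on the gene's own strand, and end at the annotated gene start. Fgfr3 is at chr5:33721474-33721673 on the plus strand, Spry1 at chr3:37639697-37639946 on the plus strand and Spry2 at chr14:105896820-105897069 on the minus strand. Capitals mark a match to the letters CTTTGAA or CTTTGAT or CTTTGTA or CTTTGTT, a motif of the TCF/LEF factors that carry Wnt signals to DNA, searched on both strands.
Fgfr3: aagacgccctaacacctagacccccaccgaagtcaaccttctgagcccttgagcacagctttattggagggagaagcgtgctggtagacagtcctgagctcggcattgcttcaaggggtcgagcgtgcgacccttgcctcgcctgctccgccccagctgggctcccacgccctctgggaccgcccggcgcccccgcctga
Spry1: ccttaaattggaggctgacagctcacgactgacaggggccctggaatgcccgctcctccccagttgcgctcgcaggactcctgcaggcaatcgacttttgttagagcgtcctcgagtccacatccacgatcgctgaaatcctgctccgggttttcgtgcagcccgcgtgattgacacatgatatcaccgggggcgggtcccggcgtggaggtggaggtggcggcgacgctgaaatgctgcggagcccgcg
Spry2: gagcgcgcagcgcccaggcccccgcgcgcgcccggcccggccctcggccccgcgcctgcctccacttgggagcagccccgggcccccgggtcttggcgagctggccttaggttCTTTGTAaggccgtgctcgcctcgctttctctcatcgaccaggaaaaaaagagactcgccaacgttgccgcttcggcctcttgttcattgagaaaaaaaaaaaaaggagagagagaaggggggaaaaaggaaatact
The window of Spry2 holds CTTTGTA from position 114, counted from 1 at the 5′ end of the printed sequence. In all, 10 windows of 250 bases were found for 7 of the 9 members looked up, and 1 of the 10 holds one of these TCF/LEF letters, against 14.8% of 32851 RefSeq windows. Etv4 and Fgfr1 had no window, so their upstream sequence was not searched for any of these motifs. An ETS motif, CGGAAGT, was in 0 of the 10 windows and in 4.92% of all windows. An AP-1 motif, TGACTCA or TGAGTCA, was in 0 of the 10 and in 4.46% of all, where AP-1 is the Fos and Jun dimer downstream of ERK. No match says only that these letters are not in this window, and a match is not evidence of binding. The windows of the members hold 44.0% to 72.8% G and C, with a median of 52.4% over all windows.

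Fgfr1 was close to undetected and lay orders of magnitude below the other receptors. Fgfr2 had more FPKM (a level per gene length, as deposited) than Fgfr3 in 9 of 9 libraries, and Fgfr3 was the member with the clearest difference between the sorted Rspo1 fractions. Fgfr1 (ENSMUSG00000031565, chromosome 8, 25513654 to 25575718, plus strand, GRCm38), the receptor typical of mesenchymal cells, had 2, 7 and 2 reads in the untreated libraries of passages 5, 6 and 10. It had 9, 8 and 4 reads in the Rspo1-negative libraries and 12, 3 and 7 in the Rspo1-positive libraries. The ranges overlap, and a difference of Fgfr1 between groups was not detectable at this depth.

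Fgfr2 (ENSMUSG00000030849, chromosome 7, 130162451 to 133123350, minus strand), whose epithelial form binds ligands made by neighbouring stroma, stood at 156, 248 and 186 CPM in the untreated libraries of passages 5, 6 and 10. It stood at 102, 173 and 135 CPM in the Rspo1-negative and at 160, 169 and 160 CPM in the Rspo1-positive libraries. All 3 groups overlapped, and the Rspo1-positive libraries lay within a narrow band. The fitted log2 difference from untreated was -0.52 (SE 0.21) for Rspo1-negative and -0.27 (SE 0.21) for Rspo1-positive cells. Between the sorted Rspo1 fractions, the quasi-likelihood test of edgeR, adjusted by the Benjamini-Hochberg method, gave a log2 difference of 0.26 (95% interval -0.21 to 0.72, adjusted p = 0.403).

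Fgfr3 (ENSMUSG00000054252, chromosome 5, 33721674 to 33737068, plus strand), a receptor with roles in epithelial and skeletal growth, stood at 126, 118 and 155 CPM in the untreated libraries of passages 5, 6 and 10. The Rspo1-negative libraries had 61.0, 72.7 and 90.1 CPM. The Rspo1-positive libraries had 42.5, 27.7 and 43.2 CPM. No library of one group overlapped with another group, so that untreated, Rspo1-negative and Rspo1-positive cells formed 3 steps downward at every passage. The fitted log2 difference from untreated was -1.82 (SE 0.21) in Rspo1-positive and -0.84 (SE 0.20) in Rspo1-negative cells.

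Between the sorted fractions Fgfr3 was lower in Rspo1-positive cells by a log2 difference of -0.98 (SE 0.20, 95% interval -1.43 to -0.53, adjusted p = 0.00841 by edgeR), which is 1.97-fold. It was lower at 3 of 3 passages, by -0.52, -1.39 and -1.06 on the log2 scale at passages 5, 6 and 10. Fgfr3 was 1 of 9 members called in this comparison, where 24.3% of all genes tested were called and 9.78% were called lower. The call held in the 17 other fits that give a p-value. In the authors' deposited table the same difference was -1.01 (SE 0.163).

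Values that moved with the fractions stand beside this result. Mki67, a marker of cycling cells, was 220 ± 67.3 CPM in the Rspo1-positive and 24.7 ± 13.7 CPM in the Rspo1-negative libraries (SD, n = 3), a log2 difference of 3.15 (SE 0.45, adjusted p = 0.00205 by edgeR). Over all genes the difference between the fractions also followed the G and C content of the transcript (rank correlation -0.504 over 17001 genes, which are not independent replicates). With an offset for G and C content and length, Fgfr3 still differed by -0.85 (adjusted p = 0.0202 by edgeR). Krt19, a keratin of bile duct cells, was 1486 ± 125 CPM in the Rspo1-positive and 2545 ± 609.5 CPM in the Rspo1-negative libraries (SD, n = 3), a log2 difference of -0.78 (SE 0.20, adjusted p = 0.0196 by edgeR), and was the 1 of 7 biliary markers called. The part of the cells behind these markers in the Fgfr3 difference was not tested. Of the exon bases of Fgfr3, 13.9% lie opposite the antisense gene G630022F23Rik, and the strand setting of the counting is not given in the sources used here. That gene had 158, 125 and 223 reads in untreated, 67, 92 and 101 in Rspo1-negative and 42, 58 and 73 in Rspo1-positive libraries. Fgfr3 had 821 to 5388 reads. At each passage the reads of the antisense gene, not scaled for depth, fell in the same order of groups as Fgfr3. The part of this overlap in the Fgfr3 difference was not tested.

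**Figure D1:**
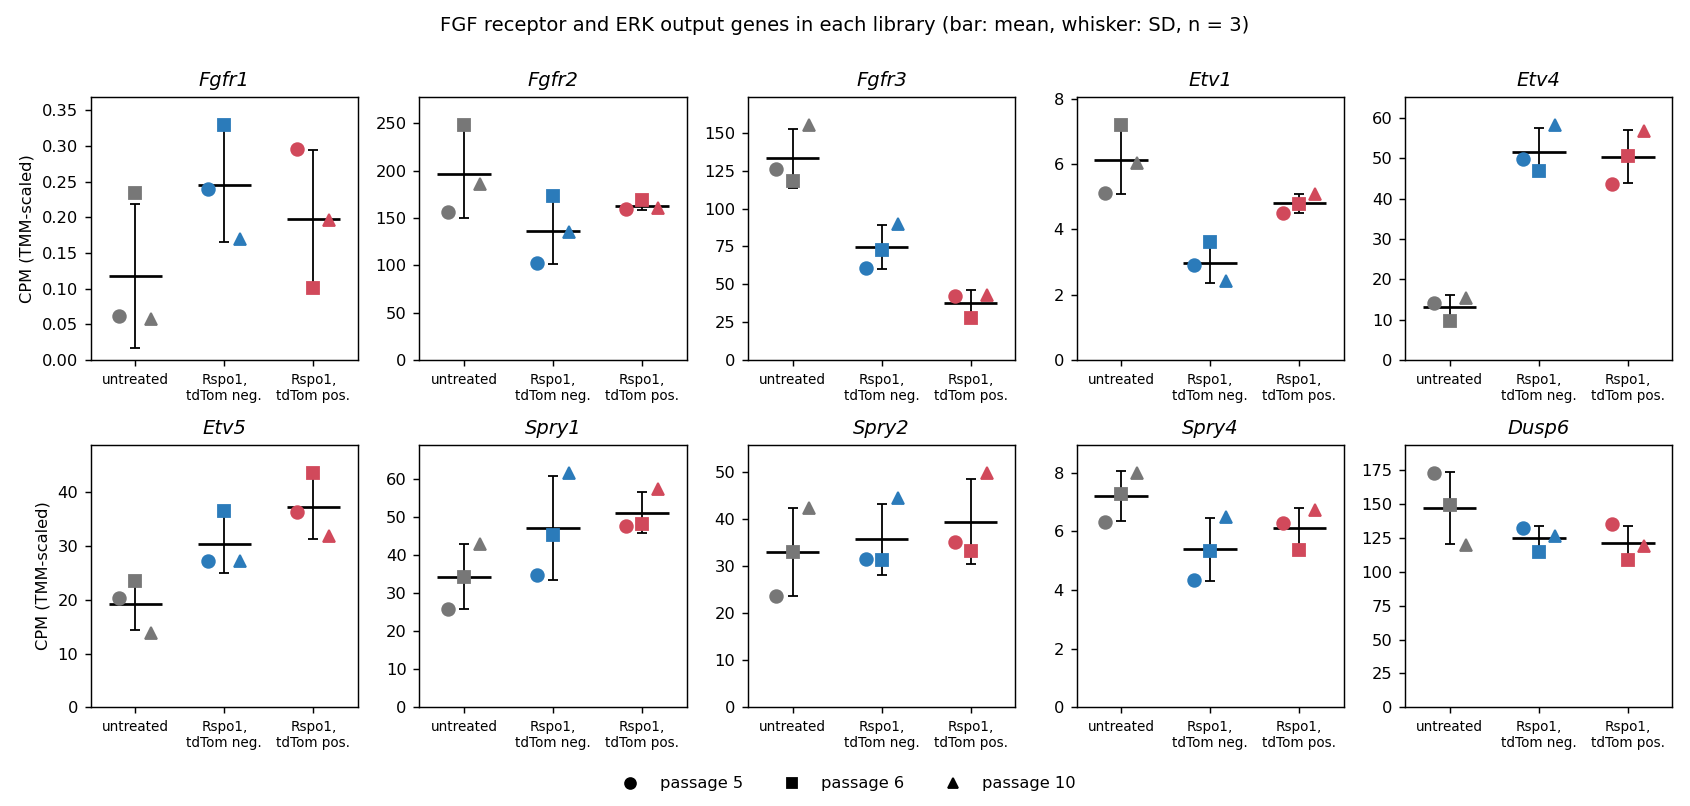
Level of each of the 10 genes in the 9 libraries, in CPM with TMM-scaled library sizes on linear axes that start at 0. Each point is a library, with its shape giving the passage and its colour the group, and bars and whiskers give mean and SD (n = 3). Fgfr3 steps down from 118 to 155 CPM in untreated to 27.7 to 43.2 CPM in Rspo1-positive libraries, Etv4 lies at 9.56 to 15.5 CPM in untreated and at 43.7 to 58.2 CPM in all Rspo1 libraries, and Fgfr1 stays under 0.33 CPM.

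Fgfr4, the remaining kinase receptor of the family and not a member, was placed beside Fgfr1 to Fgfr3 on the deposited FPKM scale, which is per gene length. Fgfr3 made up 38.4%, 29.0% and 36.7% of the summed FPKM of the 4 receptors in untreated libraries of passages 5, 6 and 10. Its share was 22.0%, 20.0% and 22.4% in Rspo1-negative and 14.3%, 8.88% and 12.0% in Rspo1-positive libraries. Fgfr4 made up 16.7 ± 4.31%, 40.8 ± 5.86% and 39.5 ± 5.49% (SD, n = 3) in untreated, Rspo1-negative and Rspo1-positive cells. The share of Fgfr2 was 48.6 ± 8.52%, 37.7 ± 7.09% and 48.7 ± 5.16% in the same order, and that of Fgfr1 at most 0.0835% in any library. The summed FPKM of the 4 genes overlapped between groups, at 76.3 to 97.9 in untreated, 67.5 to 94.2 in Rspo1-negative and 69.5 to 82.2 in Rspo1-positive libraries. In untreated cells Fgfr3 therefore had more FPKM than Fgfr4 in 3 of 3 libraries, and in both Rspo1 groups Fgfr4 had more than Fgfr3 in 6 of 6.

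**Figure D2:**
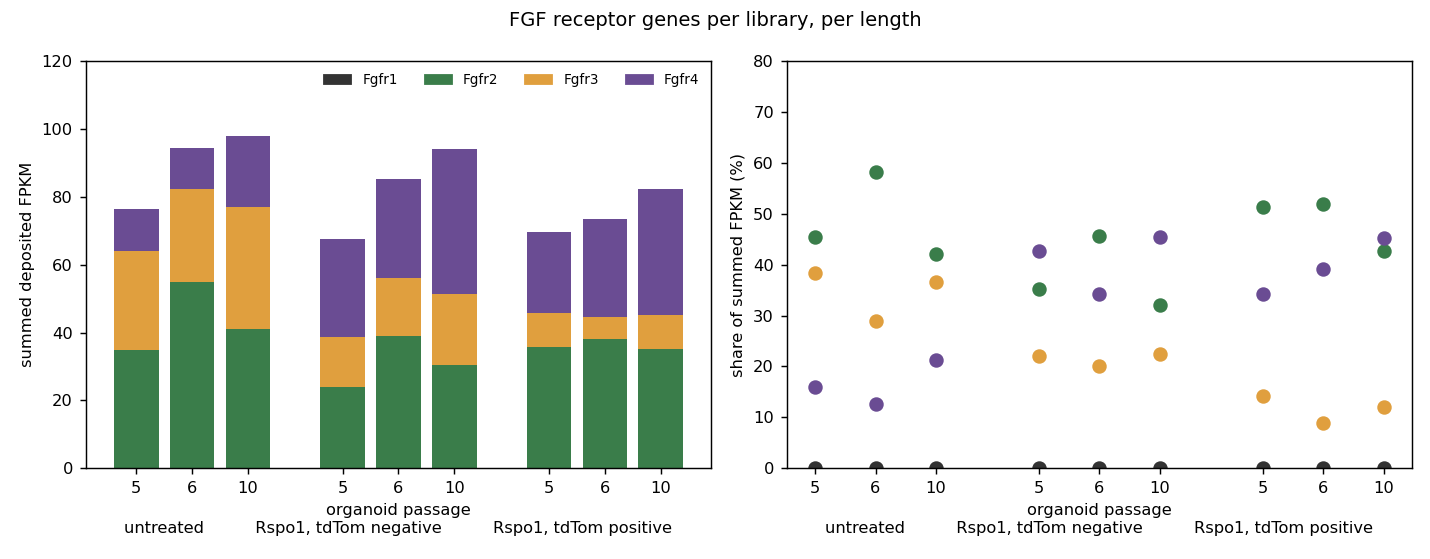
Deposited FPKM of Fgfr1 to Fgfr4 in each library, stacked (left), and the share of each receptor in that sum in percent (right), by group and passage. Each bar or column of points is a library. The Fgfr3 share is 29.0% to 38.4% in untreated and 8.88% to 14.3% in Rspo1-positive libraries, while Fgfr4 goes from 12.7% to 21.2% up to 34.2% to 45.4% in the Rspo1 libraries.

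Of the 8 other receptor and co-receptor genes, 6 passed the filter. Fgfr4 stood at 50.7 ± 17.0, 111 ± 27.9 and 101 ± 24.2 CPM (SD, n = 3) in untreated, Rspo1-negative and Rspo1-positive cells. In Rspo1-negative cells it exceeded the untreated level by a log2 difference of 1.13 (SE 0.26, adjusted p = 0.0137 by edgeR). For Rspo1-positive cells the difference was 0.99 (adjusted p = 0.0554 by edgeR), and 1.02 with passage as a block (adjusted p = 0.000149). Fgfrl1, a receptor without a kinase domain, rose by 1.17 in Rspo1-negative cells (SE 0.22, adjusted p = 0.0056 by edgeR). Gpc1, a heparan sulfate co-receptor, rose by 1.42 in Rspo1-negative (SE 0.29, adjusted p = 0.00782) and by 1.33 in Rspo1-positive cells (SE 0.29, adjusted p = 0.0245 by edgeR). The second of these Gpc1 calls was lost in 4 of 9 fits that left out 1 library, namely any of the 3 Rspo1-positive libraries or untreated replicate 1 (adjusted p 0.0524 to 0.0861 by edgeR). Without untreated replicate 1 the Fgfr4 call in Rspo1-negative cells was lost too (adjusted p = 0.0507 by edgeR). Of the 6 genes, 3 were called higher and 0 lower in Rspo1-negative cells, with 21.9% of all genes called, and 1 higher in Rspo1-positive cells, with 5.21% called. With passage as a block the latter count became 3 higher and 1 lower, where 13.2% of all genes were called. Between the fractions Sdc1, another heparan sulfate carrier, was lower in Rspo1-positive cells by -0.80 (SE 0.18, adjusted p = 0.0113 by edgeR), a call lost with the offset for G and C content and length (-0.56, adjusted p = 0.0711) and without Rspo1-positive replicate 2 (adjusted p = 0.0503), and held when the block was added to the offset (adjusted p = 0.0180 by edgeR). Klb, the co-receptor for endocrine FGFs, had 2 to 6 reads in a library, and Kl had at most 1.

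Of 22 listed ligand genes, 15 are in the count files and 7 of these passed the filter; the other 7 listed genes were not analysed here. Fgf1, which binds all FGF receptors, stood at 3.26, 4.15 and 5.07 CPM in untreated, 5.38, 6.13 and 7.20 in Rspo1-negative and 9.75, 12.8 and 11.7 in Rspo1-positive libraries of passages 5, 6 and 10. No groups overlapped. In Rspo1-positive cells Fgf1 exceeded the untreated level by 1.45 (SE 0.22, adjusted p = 0.00407 by edgeR). It exceeded the Rspo1-negative level by 0.87 (SE 0.22, adjusted p = 0.0177 by edgeR), which became 0.66 and lost its call with the offset for G and C content and length (adjusted p = 0.0867), and kept it when the block was added (adjusted p = 0.0131). This Fgf1 call was also lost in 3 of 9 fits that left out 1 library, without Rspo1-negative replicate 1 or Rspo1-positive replicate 2 or 3 (adjusted p up to 0.0693 by edgeR). Fgf18 was called higher in the Rspo1-negative group against untreated cells (adjusted p = 0.0400 by edgeR) on few reads, with 3, 4 and 0 in untreated, 15, 9 and 8 in Rspo1-negative and 18, 12 and 10 in Rspo1-positive libraries. Fgf7, a stromal ligand of epithelial Fgfr2, was called between the fractions (adjusted p = 0.0393 by edgeR) with 1 read in each Rspo1-negative library against 13, 14 and 17 in Rspo1-positive ones, and with 7, 0 and 20 in untreated ones. The Fgf18 and Fgf7 calls were both lost with the same offset, with or without the block. Of 9 fits that left out 1 library, the Fgf18 call was lost in 8 (all but that without untreated replicate 2) and the Fgf7 call in 7 (all but those without untreated replicate 2 or 3).

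Of the 3 ETS genes, Etv4 and Etv5 were higher in both Rspo1 groups and Etv1 was not. Etv4 (ENSMUSG00000017724, chromosome 11, 101769742 to 101785371, minus strand) stood at 14.1, 9.56 and 15.5 CPM in the untreated libraries of passages 5, 6 and 10. It stood at 49.9, 46.8 and 58.2 CPM in the Rspo1-negative and at 43.7, 50.6 and 56.8 CPM in the Rspo1-positive libraries. Every Rspo1 library lay above every untreated library, and the 2 Rspo1 groups overlapped. The log2 difference from untreated was 1.95 (SE 0.19) in Rspo1-positive and 1.98 (SE 0.19) in Rspo1-negative cells, and these are the values behind the choice of genes. Over 18 alternatives the Etv4 value ranged from 1.77 to 2.08 in Rspo1-positive and from 1.62 to 2.12 in Rspo1-negative cells. Within passages the ratio of Rspo1-positive to untreated was 3.08, 5.26 and 3.66 at passages 5, 6 and 10, and that of Rspo1-negative to untreated was 3.52, 4.87 and 3.75.

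The difference of Etv4 between the sorted fractions was -0.04 on the log2 scale (SE 0.18, 95% interval -0.44 to 0.37, adjusted p = 0.908 by edgeR). The sign of this value was not stable, since it was 0.30 (adjusted p = 0.232 by edgeR) with the offset for G and C content and length. Etv4 has a transcript of 58.7% G and C, the highest among the members.

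Etv5 (ENSMUSG00000013089, chromosome 16, 22381309 to 22439719, minus strand) stood at 20.3, 23.4 and 13.8 CPM in untreated, 27.2, 36.5 and 27.2 in Rspo1-negative and 36.2, 43.5 and 31.9 in Rspo1-positive libraries of passages 5, 6 and 10. Both Rspo1 groups lay above the untreated libraries, and at each passage the Rspo1-positive library was above the Rspo1-negative one. The log2 difference from untreated was 0.96 (SE 0.21) in Rspo1-positive and 0.66 (SE 0.21) in Rspo1-negative cells. The difference between the fractions was 0.30 (95% interval -0.17 to 0.77, adjusted p = 0.338 by edgeR), and 0.35 with passage as a block and the offset together (adjusted p = 0.0480). No test of a difference between Etv4 and Etv5 was made.

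Etv1 (ENSMUSG00000004151, chromosome 12, 38779380 to 38870484, plus strand) was the least abundant of the 3, at 5.11, 7.19 and 6.04 CPM in untreated libraries of passages 5, 6 and 10. It was 2.90, 3.62 and 2.41 CPM in Rspo1-negative and 4.51, 4.79 and 5.09 CPM in Rspo1-positive libraries. The Rspo1-negative libraries lay below all others, and the Rspo1-positive libraries lay just below the untreated ones. The log2 difference from untreated was -0.35 (SE 0.22) in Rspo1-positive and -1.04 (SE 0.23) in Rspo1-negative cells. Between the fractions it was 0.69 (95% interval 0.18 to 1.19, adjusted p = 0.0513 by edgeR), and 0.70 with passage as a block (adjusted p = 0.0170). With the offset for G and C content and length the value turned to -0.25 (adjusted p = 0.469 by edgeR), and the difference of Rspo1-negative from untreated cells shrank to -0.14. The Etv1 transcript has 39.8% G and C, the lowest among the members.

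On the FPKM scale the order of the members changed with Rspo1. In untreated cells Dusp6 (51.8), Fgfr2 (43.6) and Fgfr3 (30.9) had the highest mean FPKM, followed by Spry2 (15.5), Spry1 (12.2), Etv4 (5.36), Etv5 (4.75), Spry4 (1.54) and Etv1 (0.915). The ranges of neighbours overlapped for Dusp6 and Fgfr2, Fgfr2 and Fgfr3, Spry2 and Spry1, and Etv4 and Etv5, and not for the other neighbours in that order. In Rspo1-positive cells Etv4, at 20.7 FPKM, came next after Dusp6 (42.6) and Fgfr2 (36.3), and Fgfr3, at 8.77 FPKM, came after Spry2 (18.6), Spry1 (18.2) and Etv5 (9.25). Etv4 overlapped there with Spry2 and Spry1, and Etv5 with Fgfr3. Rspo1-negative cells had Etv4 at 21.7 and Fgfr3 at 17.7 FPKM, with overlapping ranges.

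Against untreated cells the Sprouty genes and Dusp6 had smaller fitted log2 differences than Etv4. The rise of Etv4 led to the choice of genes, so this order follows in part from the choice, and it was not tested. Spry1 (ENSMUSG00000037211, chromosome 3, 37639947 to 37644598, plus strand) stood at 25.9, 34.2 and 43.0 CPM in untreated, 34.7, 45.2 and 61.7 in Rspo1-negative and 47.8, 48.3 and 57.3 in Rspo1-positive libraries of passages 5, 6 and 10. The Rspo1-positive libraries lay above all untreated ones, and the Rspo1-negative libraries overlapped with both. Its log2 difference from untreated was 0.57 (SE 0.23) in Rspo1-positive and 0.46 (SE 0.23) in Rspo1-negative cells. Over 18 alternatives the Spry1 value ranged from 0.41 to 0.77 in Rspo1-positive and from 0.13 to 0.65 in Rspo1-negative cells. Of its exon bases, 24.4% lie opposite the antisense gene Gm42922, which had 29 to 125 reads against 840 to 2048 for Spry1.

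Spry2 (ENSMUSG00000022114, chromosome 14, 105891947 to 105896819, minus strand) stood at 23.7, 33.0 and 42.3 CPM in untreated, 31.6, 31.2 and 44.4 in Rspo1-negative and 35.1, 33.3 and 49.8 in Rspo1-positive libraries. The 3 groups overlapped, with log2 differences from untreated of 0.26 (SE 0.24) in Rspo1-positive and 0.11 (SE 0.24) in Rspo1-negative cells. Spry4 (ENSMUSG00000024427, chromosome 18, 38586247 to 38601415, minus strand) stood at 6.31, 7.29 and 8.00 CPM in untreated, 4.34, 5.35 and 6.48 in Rspo1-negative and 6.28, 5.36 and 6.72 in Rspo1-positive libraries. Here too the groups overlapped, and the fitted differences from untreated were below 0, at -0.23 (SE 0.21) and -0.42 (SE 0.21). Dusp6 (ENSMUSG00000019960, chromosome 10, 99263231 to 99267489, plus strand) stood at 173, 149 and 120 CPM in untreated, 132, 115 and 126 in Rspo1-negative and 135, 109 and 119 in Rspo1-positive libraries. Its differences from untreated were -0.28 (SE 0.15) and -0.24 (SE 0.15), with overlapping groups.

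Between the sorted fractions 0 of these 4 feedback genes were called by edgeR, 0 at an unadjusted p under 0.05 and 0 by DESeq2. The log2 difference was 0.12 for Spry1 (95% interval -0.38 to 0.62, adjusted p = 0.740 by edgeR) and 0.14 for Spry2 (-0.38 to 0.67, adjusted p = 0.696). For Spry4 it was 0.19 (-0.28 to 0.66, adjusted p = 0.556) and for Dusp6 -0.04 (-0.38 to 0.30, adjusted p = 0.864 by edgeR). Spry1 was called in 1 alternative, the block with the offset (0.44, adjusted p = 0.0215). The printed intervals are from the fit without the passage block. With the block the SE was 0.13 for Spry1, Spry2 and Dusp6 and 0.17 for Spry4. In that fit 0 of these 4 genes were called (adjusted p 0.364 to 0.792 by edgeR). Neither fit shows that the fractions were alike.

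**Figure D3:**
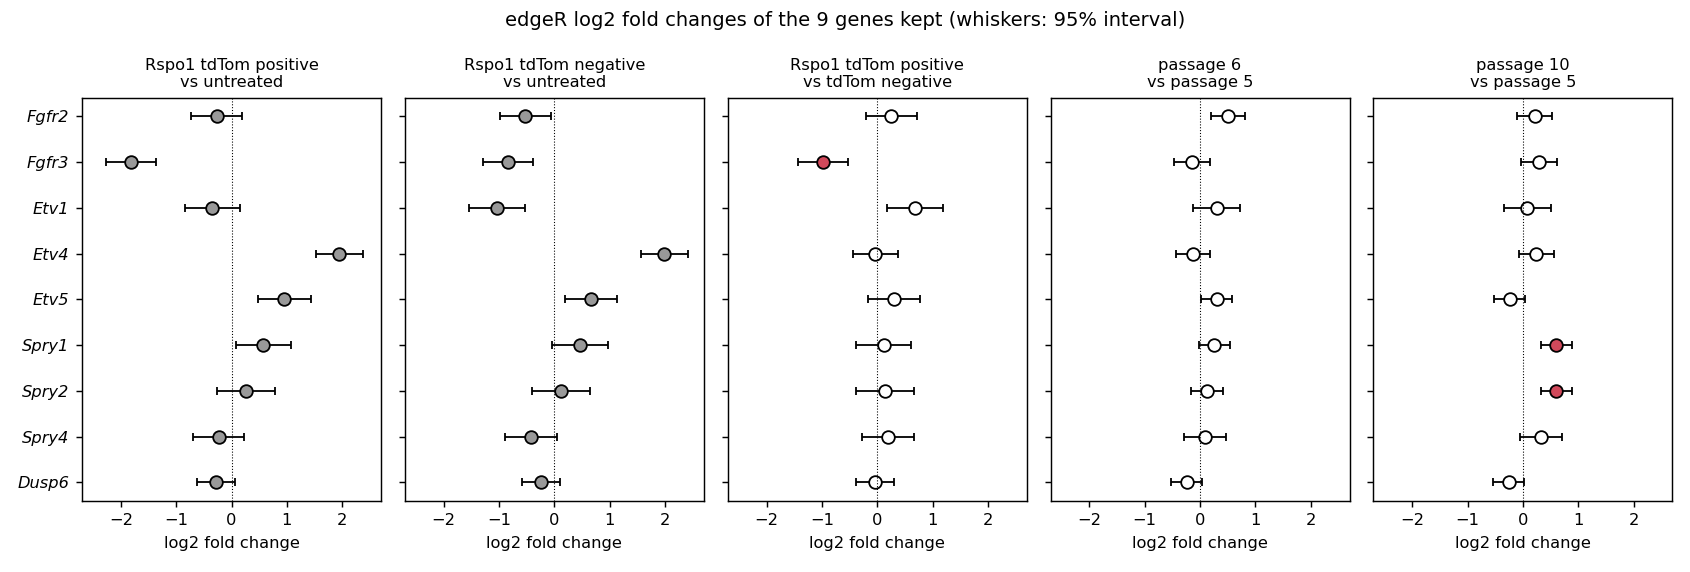
Fitted log2 differences (points) with 95% intervals (whiskers) for the 9 members that passed the filter, in 5 comparisons. Grey points are contrasts with untreated cells, which entered the choice of genes and carry no test, red points passed an adjusted p of 0.05 by edgeR and white points did not. Fgfr3 at -0.98 is the red point between the fractions, and Spry1 and Spry2, both at 0.60, are the red points between passages 10 and 5.

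Against untreated cells, members whose libraries did not overlap were 5 of 9 for Rspo1-positive cells, where 23.2% of all genes did not overlap, and 4 of 9 for Rspo1-negative cells, where 36.3% did not. The first 5 were Etv4, Etv5 and Spry1 above and Fgfr3 and Etv1 below, and the 4 were Etv4 and Etv5 above and Fgfr3 and Etv1 below. These counts include the gene that led to the choice, and both comparisons use the same untreated libraries. The median log2 difference over the 9 members was -0.23 and -0.24, beside -0.01 and -0.02 over all genes tested. Between the fractions it was 0.14, beside 0.03 over all genes.

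Passage was examined in a fit of group and passage, with 1 library of each group at each passage. A passage is a single round of culture, and passage cannot be told apart from the day or batch of that round. Spry1 was higher at passage 10 than at passage 5 by a log2 difference of 0.60 (SE 0.13, 95% interval 0.32 to 0.89, adjusted p = 0.0172 by edgeR), in 3 of 3 groups. Spry2 was higher by 0.60 (SE 0.13, 95% interval 0.32 to 0.88, adjusted p = 0.0167 by edgeR), also in 3 of 3 groups. The 3 passage 10 libraries of Spry2 (42.3 to 49.8 CPM) lay above the 3 of passage 5 (23.7 to 35.1 CPM), whereas those of Spry1 overlapped. Thus 2 of 9 members were called, both higher, with 9.07% of all genes called and 4.57% called higher.

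Both calls were sensitive to single libraries. Spry1 kept its call in 5 of 9 fits that left out 1 library, and lost it without replicate 1 or 3 of the untreated or of the Rspo1-negative group, with adjusted p up to 0.131 by edgeR. Spry2 kept its call in 4 of 9 such fits, and lost it without the same 4 libraries or without Rspo1-positive replicate 3, with adjusted p up to 0.117 by edgeR. In all of these fits the values stayed positive, from 0.48 to 0.75 for Spry1 and from 0.47 to 0.68 for Spry2. Axin2 and Mki67 also differed between passages 10 and 5, by 1.48 (SE 0.24, adjusted p = 0.00424) and 0.91 (SE 0.19, adjusted p = 0.0146 by edgeR). Of 7 dissociation markers 4 were lower at passage 10 (median of the 7, -0.90), as were 2 of 4 hepatocyte markers (Apoa1 and Ttr) and Cd68, the 1 immune marker tested (-1.39), all by edgeR. The part of these genes in the Sprouty difference was not tested.

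Spry4 had a difference of 0.33 between passages 10 and 5 (95% interval -0.05 to 0.71, adjusted p = 0.241 by edgeR), with its passage 10 libraries above those of passage 5. Dusp6 had -0.25 (95% interval -0.53 to 0.03, adjusted p = 0.228 by edgeR), with its passage 10 libraries below. Members whose passage 10 and passage 5 libraries did not overlap were 3 of 9 (Spry2, Spry4 and Dusp6), beside 16.7% of all genes. Etv4 differed by 0.24 (95% interval -0.07 to 0.55, adjusted p = 0.300 by edgeR) and Fgfr3 by 0.28 (-0.04 to 0.61, adjusted p = 0.246). Between passages 6 and 5, 0 of 9 members were called by edgeR, beside 2.49% of all genes. At an unadjusted p under 0.05 these were Fgfr2 and Etv5, and DESeq2 called 1, Fgfr2. Fgfr2 was higher by 0.50 (SE 0.14, adjusted p = 0.0975 by edgeR, 0.0244 by DESeq2), with the 3 passage 6 libraries (169 to 248 CPM) above the 3 of passage 5 (102 to 160 CPM).

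**Figure D4:**
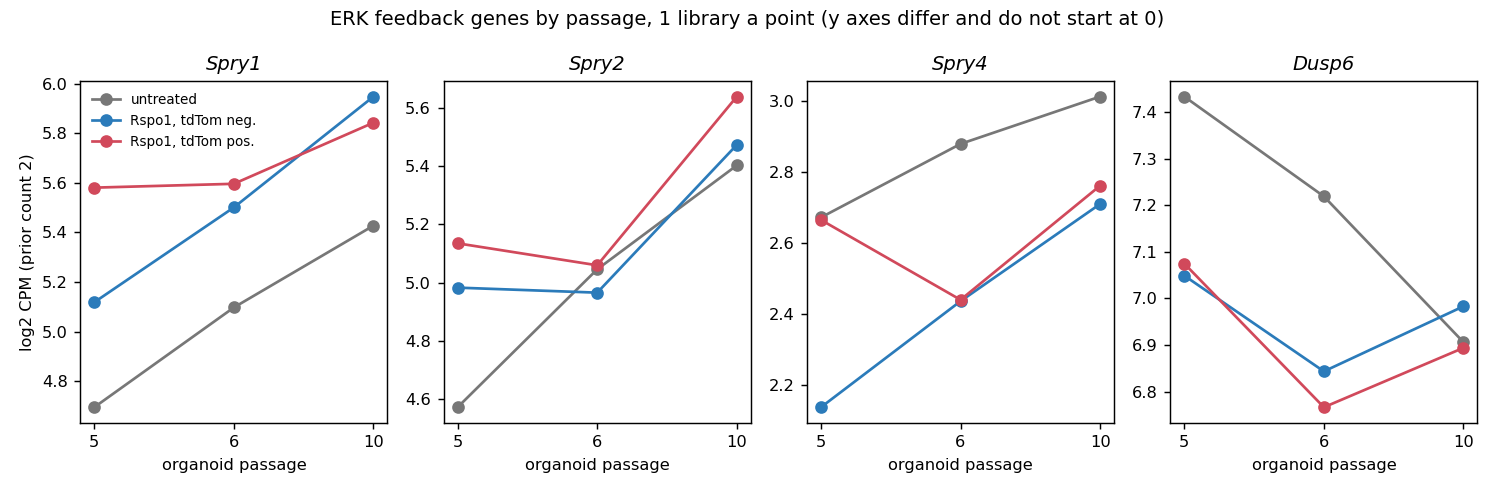
Log2 CPM (prior count 2) of the 4 feedback genes at passages 5, 6 and 10, with 1 line a group and 1 point a library; the y axes differ between panels and do not start at 0. Spry1 and Spry2 are higher at passage 10 than at passage 5 in 3 of 3 groups, by a fitted 0.60 each, and Dusp6 is lower in 3 of 3 groups by 0.25.

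Across the 9 libraries, Spry1 and Spry2 were the pair of members with the highest correlation of log2 CPM (Pearson r 0.841). After the group means were removed this pair had r 0.886, and Spry1 and Spry4 had the highest, 0.929. Etv4 and Etv5 had r 0.718 across libraries and -0.708 without the group means, a value pooled over the groups: in the Rspo1-positive group both were higher at passage 6 than at passage 5. These values describe 9 libraries that share 3 groups and 3 passages. Of 11660 other genes with a mean log2 CPM above 2, the 6 closest to Etv4 over the 9 libraries were Hunk (r 0.977), Gm17080 (0.975), Haus5 (0.974), Nmral1 (0.973), Enkd1 (0.971) and Mras (0.970). Etv5 was at rank 669 and Spry1 at rank 746, while Fgfr3 had r -0.749.

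The other genes of the pathway were counted in lists, each read beside the share of all genes called in the same fit. By edgeR those shares were 24.3% between the fractions, 21.9% for Rspo1-negative and 5.21% for Rspo1-positive against untreated cells. With the offset for G and C content and length they were 8.53%, 8.80% and 6.66% in the same order. With passage as a block, which pairs the libraries, they were 38.9%, 35.5% and 13.2%, and with block and offset together 24.3%, 22.2% and 17.2%.

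Of 20 tested ERK output and feedback genes outside the members, 0 were called in Rspo1-positive against untreated cells by edgeR without the block, 6 had an unadjusted p under 0.05 and DESeq2 called 4. With the block 6 were higher and 1 lower, and with block and offset 6 higher and 2 lower. Phlda1 had the smallest adjusted p without the block (log2 difference 0.75, adjusted p = 0.0666 by edgeR). In Rspo1-negative against untreated cells 4 of the 20 were called, close to the 21.9% of all genes called. Of these 1 was higher, Ier3 at 0.52 (SE 0.15, adjusted p = 0.0291 by edgeR). Lower there were 3, namely Epha4 at -0.92 (SE 0.20, adjusted p = 0.0102), Spred1 at -0.83 (SE 0.18, adjusted p = 0.0109) and Flrt3 at -0.68 (SE 0.19, adjusted p = 0.0292 by edgeR). The offset moved these counts to 0 higher and 2 lower, the block to 4 and 5, and both together to 0 and 6. With the offset all 4 named calls were lost, with Ier3 at 0.19 and Epha4 at -0.41, and Epha4 was called again when the block was added (-0.43, adjusted p = 0.0163 by edgeR). Ier3 also lost its call without Rspo1-negative replicate 1 or 3, Rspo1-positive replicate 1 or untreated replicate 3 (adjusted p up to 0.0983 by edgeR), and with only the 6 libraries of these groups (adjusted p = 0.0748). Flrt3 lost its call in 5 of 9 fits that left out 1 library (any Rspo1-negative library, or untreated replicate 2 or 3), and Spred1 in 1, without Rspo1-negative replicate 3.

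Between the fractions 5 of the 20 were higher in Rspo1-positive cells and 0 lower, a count close to the 24.3% of all genes called. They were Flrt2, Epha4, Flrt3, Spred1 and Spred2, with log2 differences from 0.38 to 1.34. Spred1 and Spred2 encode relatives of the Sprouty proteins. Leaving out 1 library lost no call of Epha4 or Flrt3. It lost those of Spred1 (without Rspo1-negative replicate 1 or 3 or Rspo1-positive replicate 3), of Flrt2 (without either of these Rspo1-negative or any Rspo1-positive library) and of Spred2 (the same 5 libraries or untreated replicate 1). With the offset edgeR called 0 of the 20 genes, with 8 at an unadjusted p under 0.05, and Spred1 stood at -0.07. With the block 8 were called higher, Egr1 among them at 2.22 (adjusted p = 0.000166 by edgeR), and with block and offset 9 higher and 0 lower, Spred1 not among them (-0.06).

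Egr1, an immediate target of ERK that also responds to cell dissociation, differed more between passages than any member. It stood at 82.9, 9.03 and 18.6 CPM in untreated, 65.3, 13.2 and 31.4 in Rspo1-negative and 290, 63.0 and 147 in Rspo1-positive libraries of passages 5, 6 and 10. Against passage 5 it was lower by -2.59 at passage 6 (SE 0.22, adjusted p = 0.000578) and by -1.41 at passage 10 (SE 0.21, adjusted p = 0.00285 by edgeR). The summed dissociation markers were 549 to 967 CPM in untreated, 555 to 737 in Rspo1-negative and 633 to 1370 in Rspo1-positive libraries, and their part was not tested. Of the 20 genes 3 were lower at passage 6 (Egr1, Egr2 and Ccnd1), beside 2.49% of all genes called in either direction. At passage 10 Myc (0.83) and Phlda1 (0.49) were higher and Egr1 lower, beside 9.07% of all genes called. Of 9 fits that left out 1 library, 0 lost a call of Egr1 or Myc, while Egr2 lost its call in 3 (any passage 5 library), Phlda1 in 6 (any passage 5 or passage 10 library) and Ccnd1 in 7 (all but those without untreated replicate 2 or 3).

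All 24 adaptor and kinase genes were tested. In Rspo1-negative against untreated cells 0 were higher and 10 lower, beside 21.9% of all genes called in either direction, led by Rasa1 (-1.69), Rps6ka3 (-1.55) and Braf (-1.51). Between the fractions 10 were higher in Rspo1-positive cells and 4 lower, beside 24.3%. In Rspo1-positive against untreated cells 0 were called by edgeR without the block, 4 had an unadjusted p under 0.05, DESeq2 called 3 lower, and the block called 0 higher and 3 lower. With the offset the counts were 0 higher and 4 lower, 2 higher and 1 lower, and 0 higher and 2 lower in the same order, and with block and offset 1 and 8, 5 and 3, and 0 and 4. The rank correlation of the log2 difference with G and C content over all genes against untreated cells was 0.496 for the Rspo1-negative and -0.0134 for the Rspo1-positive group.

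Of 14 other ETS factor genes, 5 were higher between the fractions and 0 lower (Elf1, Gabpa, Ehf, Ets1 and Elk4, 0.71 to 1.03), beside 24.3% of all genes called. The offset left 0, with 3 at an unadjusted p under 0.05 by edgeR, the block gave 7 higher and 2 lower, and block and offset together gave 3 higher and 0 lower. In Rspo1-negative against untreated cells 1 was higher (Erf, 0.50) and 5 lower, beside 21.9%. These counts were 0 and 1 with the offset, 2 and 7 with the block and 0 and 6 with both, so Erf lost its call under each fit with the offset. Erf also lost it in 5 of 9 fits that left out 1 library (any untreated library, Rspo1-positive replicate 2 or Rspo1-negative replicate 3). Of the 5 lower genes, Elf4 lost its call in 8 such fits, Elk4 in 3, Etv3 in 2 and Elf1 and Gabpa in 0. Between the fractions Ehf and Elk4 each lost theirs in 4, Ets1 in 2 and Elf1 and Gabpa in 0. In Rspo1-positive against untreated cells 0 were called by edgeR without the block or by DESeq2, with 1 (Elf3) at an unadjusted p under 0.05, and 1 was called lower with the block.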

How the data were processed

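Sorted organoid cells were measured by single-end 75 bp RNA sequencing from 100 ng of total RNA. The authors deposited raw counts and FPKM values per gene for each library, per the file headers. Their comparison tables give log2 fold changes, p-values, a Wald statistic (score) and a mean normalised signal per gene, per the file headers. Trimmomatic 0.35, FastQC 0.11.2, STAR 2.5.1b, featureCounts, DESeq2 and GRCm38 are named in the submitters' processing notes without roles; the strand setting and the annotation release are not given in the sources used here. The third replicate carries the number 4 in column names and was matched by its file.

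Counts were fitted in R 4.3.3 with edgeR 4.0.16 (filterByExpr with minimum count 10 and total 15, TMM scaling, quasi-likelihood F-test, Benjamini-Hochberg adjustment over 17011 genes, threshold 0.05). All 9 libraries entered 1 fit by group, and passages were compared in a fit of group and passage. CPM uses TMM-scaled library sizes. FPKM values entered no test. They served to compare levels between genes, and log2(FPKM + 0.1) was 1 alternative. DESeq2 1.42.0, other scalings, no filter, a passage block, an offset for G and C content and length (splines with 5 degrees of freedom, GENCODE M21) and leaving out each library were the others. The scripts were tested on simulated data. Tables and figures used Python 3.11.15.

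Replicate numbers stand for passages in the labels. After the group means were removed, libraries of the same passage correlated at 0.123 to 0.573 (9 pairs) and those of different passages and groups at -0.476 to 0.0826 (18 pairs), so the numbers pair the libraries. The members and lists were chosen with earlier results of these data known. All 10 members are named, and from each list up to 6 called genes with the smallest adjusted p per comparison, with any receptor or ligand kept. Phlda1 against untreated cells, Egr1 between the fractions, Elf3 and the markers Krt19, Apoa1, Ttr and Cd68 were named outside that rule, after their values were seen. Library totals limit precision for weakly counted genes such as Fgfr1, Fgf7 and Fgf18, and their effect on other genes was not tested.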

Additional observations from a re-analysis of the deposited data

Results flagged for a closer look

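Fgfr3 differed between the sorted Rspo1 fractions: its log2 change against untreated cells was -1.82 (SE 0.21) in Rspo1-positive and -0.84 (SE 0.20) in Rspo1-negative cells, and the difference of these changes was -0.98 (SE 0.20, adjusted p = 0.00841 by edgeR). It was lower in Rspo1-positive cells at 3 of 3 passages. Because both changes are taken against the same untreated libraries, their difference is that between the fractions themselves.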

How the results depend on the processing

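Fgfr3 kept its direction and its call between the fractions in the 17 other fits with a p-value, with a range of -1.11 to -0.80 over the fits that left out 1 library and adjusted p from 3.6e-05 to 0.0287 over all of them (edgeR, and DESeq2 in 1). Spry1 and Spry2 between passages 10 and 5 ranged from 0.48 to 0.75 and from 0.47 to 0.68 when 1 library was left out.

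With passage as a replicate block 6624 genes were called between the fractions (4141 without), 2247 in Rspo1-positive (886 without) and 6039 in Rspo1-negative against untreated cells (3724 without). Between the fractions it called 2 of 9 members, Fgfr3 and also Etv1. With the block and the offset for G and C content and length the count was 2930 for Rspo1-positive against untreated cells. With that offset alone the counts were 1451 between the fractions and 1497 in Rspo1-negative against untreated cells. The count by DESeq2 was 1506 for Rspo1-positive against untreated cells and 851 between passages 6 and 5. Without the filter these 2 counts were 1446 and 1193, and 2784 genes were called between passages 10 and 5 (1543 with it). With only the 6 libraries of its groups, Rspo1-negative against untreated gave 2299. Leaving out 1 library moved the counts to 2061 to 4555 between the fractions, 390 to 899 in Rspo1-positive and 1800 to 3772 in Rspo1-negative against untreated cells, 105 to 846 between passages 6 and 5, and 405 to 3594 between passages 10 and 5. Upper-quartile scaling moved the share of higher genes among those called in Rspo1-negative against untreated cells from 36.5% to 49.5%.

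Values that changed sign were those of members that were not called in the main fits. Between the fractions, however, Etv1 was called in 4 and Spry1 in 1 of the 17 other fits with a p-value. Between the fractions, Etv1 (0.69) went to -0.25 with the offset and to -0.26 with the block and the offset, and Etv4 (-0.04) to 0.30 under both. Over the fits that left out 1 library the values between the fractions ranged from -0.133 to 0.0559 for Etv4, -0.0660 to 0.306 for Spry1, -0.0627 to 0.274 for Spry2 and -0.130 to 0.0245 for Dusp6. Between passages 6 and 5 they ranged from -0.276 to 0.0330 for Etv4, -0.0143 to 0.201 for Spry2, -0.0180 to 0.232 for Spry4 and -0.317 to 0.0292 for Fgfr3, and between passages 10 and 5 from -0.0463 to 0.174 for Etv1. The cause was not tested.

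With 2 to 12 reads in a library, Fgfr1 allows no statement on a change, and 1 animal limits all tests to repeated cultures.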

Other observations

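Among the libraries of Rspo1-treated organoids, the gene CT010467.1 took 4.35% to 8.89% of all counts in 3 of 6 (both fractions of passage 6 and the Rspo1-positive library of passage 10), whereas in the other 6 of the 9 libraries the most abundant gene was Clu or Dmbt1 with at most 2.91% of counts.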
